A study of Mus musculus with 8 samples.

Results

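The Cyp2a and Cyp2b cytochrome P450 genes of mouse liver were followed in 8 RNA sequencing libraries. The 7 members, Cyp2a4, Cyp2a5, Cyp2a12, Cyp2a22, Cyp2b9, Cyp2b10 and Cyp2b13, are the rows of the deposited table that carry these symbols, out of 22013 genes in all. The family was picked with the resmetirom against control results of these data already known, so the fold changes of the members are given here as a description and without p-values. Of the 8 libraries of poly(A)-selected liver RNA, 4 are titled control and 4 resmetirom. Resmetirom is a drug that activates the beta type of thyroid hormone receptor. For the resmetirom mice the series describes a steatohepatitis diet rich in fructose, palmitate and cholesterol fed for 12 weeks, with the drug given by intraperitoneal injection at 5 mg/kg/day from week 4 on for 8 weeks. The sample labels name the tissue and the replicate but give no diet, vehicle, strain, age or sex for either group, so whether the control libraries shared the diet or received vehicle cannot be told, and such differences cannot be told apart from the drug. The labels do not tie a library to an animal, and the spread between libraries may be technical.

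Cytochromes P450 of the CYP2A and CYP2B subfamilies are heme enzymes of the endoplasmic reticulum that hydroxylate steroids, fatty acids and foreign compounds, and in liver they are made mainly by hepatocytes around the central vein. Transcription of Cyp2b10 is the classic readout of the nuclear receptor CAR, which works as a dimer with RXR, and the related receptor PXR acts on many of the same genes. In mice several members, among them Cyp2a4, Cyp2b9 and Cyp2b13, are expressed more in female than in male liver, a difference set by the pulse pattern of growth hormone. Cyp2a4 encodes a steroid 15-alpha-hydroxylase, and its near copy Cyp2a5 encodes the enzyme that oxidises coumarin and nicotine.

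All 7 members lie on chromosome 7 (GRCm38, GENCODE M21). In the order of the chromosome, Cyp2b10 spans 25897620 to 25926624, Cyp2b13 26061497 to 26096197, Cyp2b9 26173411 to 26210661, Cyp2a4 26307169 to 26315088, Cyp2a5 26835305 to 26843548, Cyp2a22 26931631 to 26939384 and Cyp2a12 27029081 to 27037375. Cyp2a22 is on the minus strand and the other members are on the plus strand. Cyp2a4 overlaps the antisense gene Gm42375, Cyp2b13 the pseudogene Rnf170-ps and Cyp2a22 the pseudogene Cyp2a21-ps. Strand handling was not given in the sources used here, so reads of Cyp2a4 and of its antisense neighbour could not be told apart.

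The members form near-identical pairs. The coding sequences of Cyp2a4 and Cyp2a5 differed at 23 of 1482 bases (98.45% identity), those of Cyp2a12 and Cyp2a22 at 45 of 1476 (96.95%) and those of Cyp2b9 and Cyp2b13 at 107 of 1473 (92.7%). Cyp2b10 was 87.8% identical to Cyp2b9 and 88.9% to Cyp2b13. Of all 100-base stretches of the Cyp2a4 transcript, 11.2% occurred unchanged in Cyp2a5, and in the other direction 9.56% did. The share was 6.83% for Cyp2a12 in Cyp2a22 and 1.18% for Cyp2b9 in Cyp2b13, and no such stretch of Cyp2b10 occurred in another member. How the authors assigned reads that fit several copies was not given in the sources used here, and such reads can move between the copies of a pair without changing its sum, so values of single copies are uncertain and sums over pairs and subfamilies are given as well. The following exon 2 stretch shows how few bases tell Cyp2a4 from Cyp2a5 at the place where they differ most within 60 bases. Capitals mark the 3 bases that differ, and the stretches are coding bases 197 to 256, at chr7:26307666-26307725 in Cyp2a4 and chr7:26835811-26835870 in Cyp2a5 (GRCm38, plus strand).
Cyp2a4: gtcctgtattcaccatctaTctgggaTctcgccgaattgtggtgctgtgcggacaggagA
Cyp2a5: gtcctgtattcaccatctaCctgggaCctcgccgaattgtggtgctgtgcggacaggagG

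The promoters of Cyp2a4 and Cyp2a5 and those of Cyp2b9 and Cyp2b13 are nearly identical within each pair, and they are printed because the copies of a pair differed in their counts. The sequences are the 250 bases before the RefSeq start (GRCm38.p6), on the plus strand, and capitals mark bases that differ or have no partner in the alignment. Cyp2a4 (chr7:26306942-26307191) and Cyp2a5 (chr7:26835089-26835338) were 98.4% identical over 249 aligned bases. Their 4 differences, counted from the first base of the Cyp2a4 sequence and with the Cyp2a4 base first, were C19T, T131C, G161A and G205T.
Cyp2a4: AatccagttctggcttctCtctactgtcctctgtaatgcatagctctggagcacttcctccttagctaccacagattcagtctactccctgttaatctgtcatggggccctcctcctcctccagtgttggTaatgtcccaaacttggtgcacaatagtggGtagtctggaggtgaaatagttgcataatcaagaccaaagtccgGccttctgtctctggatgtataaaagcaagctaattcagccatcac
Cyp2a5: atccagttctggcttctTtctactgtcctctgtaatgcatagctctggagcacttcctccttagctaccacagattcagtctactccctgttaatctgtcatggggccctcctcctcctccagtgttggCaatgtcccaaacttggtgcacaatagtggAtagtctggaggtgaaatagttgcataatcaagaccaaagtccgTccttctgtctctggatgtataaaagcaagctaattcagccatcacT

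Cyp2b9 (chr7:26173159-26173408) and Cyp2b13 (chr7:26061245-26061494) were 99.2% identical over 250 bases. Their 2 differences, counted in the same way with the Cyp2b9 base first, were T48C and C104T.
Cyp2b9: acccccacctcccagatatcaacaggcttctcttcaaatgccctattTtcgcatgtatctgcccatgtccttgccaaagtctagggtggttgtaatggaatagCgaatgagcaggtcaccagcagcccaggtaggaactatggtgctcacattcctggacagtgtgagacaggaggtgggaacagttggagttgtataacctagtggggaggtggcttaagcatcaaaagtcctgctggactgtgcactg
Cyp2b13: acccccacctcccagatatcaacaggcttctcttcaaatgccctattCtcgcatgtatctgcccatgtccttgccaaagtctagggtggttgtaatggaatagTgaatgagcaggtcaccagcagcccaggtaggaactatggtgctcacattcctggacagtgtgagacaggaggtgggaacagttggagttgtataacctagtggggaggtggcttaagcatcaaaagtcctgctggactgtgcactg

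The promoters of Cyp2a12 and Cyp2a22 were 90.4% identical over 239 aligned bases, and that of Cyp2b10 was 75.8% identical to each of the other Cyp2b promoters. Of 7 motifs searched on both strands in the 300 bases around the start (250 before and 50 after), TATAAA occurred in all Cyp2a promoters and in no Cyp2b promoter, against 13.6% of all 32851 promoters of that length. The hexamer AGGTCA, a core of nuclear receptor sites, occurred in Cyp2b9 and Cyp2b13, 138 bases before the start, and after the start in Cyp2a4 and Cyp2a5, against 16.3% of all promoters. This hexamer is part of its direct repeats DR4 (4 bases between the copies) and DR1 (1 base between them). DR4, DR1, TTCNNNGAA, TGTTTAC and TGACNNNGC occurred in none of the 7 windows, against 0.0152%, 0.0396%, 8.3%, 3.65% and 12.4% of all promoters. These are matches of letters only.

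The libraries held 16787561 to 19887539 counts, and members took 0.105% to 0.246% of them. Levels are CPM, the counts scaled to library size and TMM factors, and levels of different genes are compared as the TPM of the authors, which also correct for length. A value after ± is the SD over the 4 libraries of a group. The resmetirom libraries did not form an even group: major urinary protein (Mup) transcripts took 7.54% of all counts in resmetirom replicate 1 and 17.8% to 25.1% in replicates 2 to 4, against 4.32% to 7.05% in the control libraries, and the TMM factors, which offset such shifts, were 1.06 in resmetirom replicate 1, 0.804 to 0.879 in replicates 2 to 4 and 1.08 to 1.16 in the control libraries. Of 12207 tested genes, 317 (2.6%) were higher and 243 (1.99%) lower in the resmetirom libraries with edgeR at an adjusted p under 0.05, and 11.8% had groups that did not overlap. With library sizes as the only scaling 92.9% of the calls were lower, and on the log2(TPM + 1) scale 97.4%, against 43.4% with TMM factors. These settings moved the median over all tested genes from -0.0043 to -0.31 and -0.41 (log2 fold change). The 9 hepatocyte markers measured, among them Alb and Apoa1, summed to 79369 to 88945 CPM in the control and 99912 to 107402 CPM in the resmetirom libraries. In bulk liver RNA a change in the number of expressing cells and a change in RNA per cell cannot be told apart.

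Within the Cyp2a subfamily the copies of each near-identical pair parted. Cyp2a4 was 9.98 times and Cyp2a22 5.16 times as high in the resmetirom libraries, Cyp2a12 was 1.296 times as high, and Cyp2a5 varied within both groups without a difference between them beyond that spread. In the Cyp2b subfamily no member separated the groups. All 7 members passed the filter on low counts. In the fit across all genes 3 of the 7 were called higher, against 2.6% of all tested genes, and none was called lower, against 1.99%, so that 3 of 7 were called in either direction, against 4.59%. In 3 of the 7 every resmetirom library lay above every control library, against 6.32% of all tested genes, and in none below, against 5.5%. Nothing is read from these counts, since the family was chosen on this contrast.

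Cyp2a4, the steroid hydroxylase gene, was at 112, 58.6, 132 and 79.4 CPM in control replicates 1 to 4. In resmetirom replicates 1 to 4 it was at 1029, 969, 851 and 971 CPM. Every resmetirom library was thus far above the highest control library. On this scale the resmetirom libraries lay closer together relative to their mean, with an SD of 7.83% of the mean against 34.4%. In absolute terms the SD of the resmetirom libraries was the larger on both scales, in TPM with 736 ± 186 against 103 ± 35.8 in the control libraries. The means were 95.6 ± 32.9 and 955 ± 74.7 CPM (log2 fold change 3.32, SE 0.24). The log2 fold change ranged from 2.87 to 3.52 over 19 alternatives that left out a library or changed the scaling, filter or test, and it was called higher in all 19.

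Cyp2a5, the coumarin hydroxylase gene, was at 205, 402, 513 and 483 CPM in control replicates 1 to 4 and at 468, 713, 231 and 250 CPM in resmetirom replicates 1 to 4. Both groups held a low and a high part of the range and overlapped over most of it, with control replicate 1 and resmetirom replicates 3 and 4 low. The means were 401 ± 138 and 416 ± 225 CPM (log2 fold change 0.05, SE 0.45). Its sign turned with the setting, from -0.53 on the log2(TPM + 0.1) scale to 0.25 without resmetirom replicate 3, and no alternative called it.

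The ratio of the 2 copies did not overlap between the groups. In TPM, Cyp2a4 was 0.633, 0.169, 0.298 and 0.191 times Cyp2a5 in control replicates 1 to 4 and 2.54, 1.57, 4.26 and 4.49 times in resmetirom replicates 1 to 4. Cyp2a5 was the more abundant copy in all 4 control libraries and Cyp2a4 in all 4 resmetirom libraries. Their summed counts had a log2 fold change of 1.46 (SE 0.22), from 496 ± 141 to 1370 ± 270 CPM (SD, n = 4 each), and this sum does not depend on how reads were split between them.

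Cyp2a22, a gene whose enzyme has no well-known substrate, was at 26.3, 28.4, 29.2 and 26.4 CPM in control replicates 1 to 4 and at 154, 135, 132 and 150 CPM in resmetirom replicates 1 to 4. In CPM both groups were tight and lay far apart. In TPM the resmetirom libraries spread from 81.3 to 143, against 26.0 to 31.1 in the control libraries. The log2 fold change was 2.37 (SE 0.09), and it ranged from 1.82 to 2.40 over the 19 alternatives, all of which called it higher.

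Cyp2a12, another steroid hydroxylase gene, was at 542, 537, 546 and 543 CPM in control replicates 1 to 4, the smallest relative spread among the members (0.621%). It was at 667, 700, 741 and 702 CPM in resmetirom replicates 1 to 4, so that the groups did not overlap. Its log2 fold change of 0.37 (SE 0.08) depended on the scaling. Library sizes as the only scaling gave 0.06, and both TPM scales gave -0.13, and neither called it. A fit with the replicate number as a block gave 0.37 and did not call it. As TPM, the control libraries held 572 to 635 and the resmetirom libraries 489 to 664, which overlap.

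In TPM, Cyp2a22 was 0.0455 to 0.0501 times Cyp2a12 in the control libraries and 0.166 to 0.216 times in the resmetirom libraries. Cyp2a12 remained the more abundant copy in all 8 libraries. The sum of both had a log2 fold change of 0.57 (SE 0.07), which was 0.26 with library sizes only and 0.05 on both TPM scales.

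**Figure D1:**
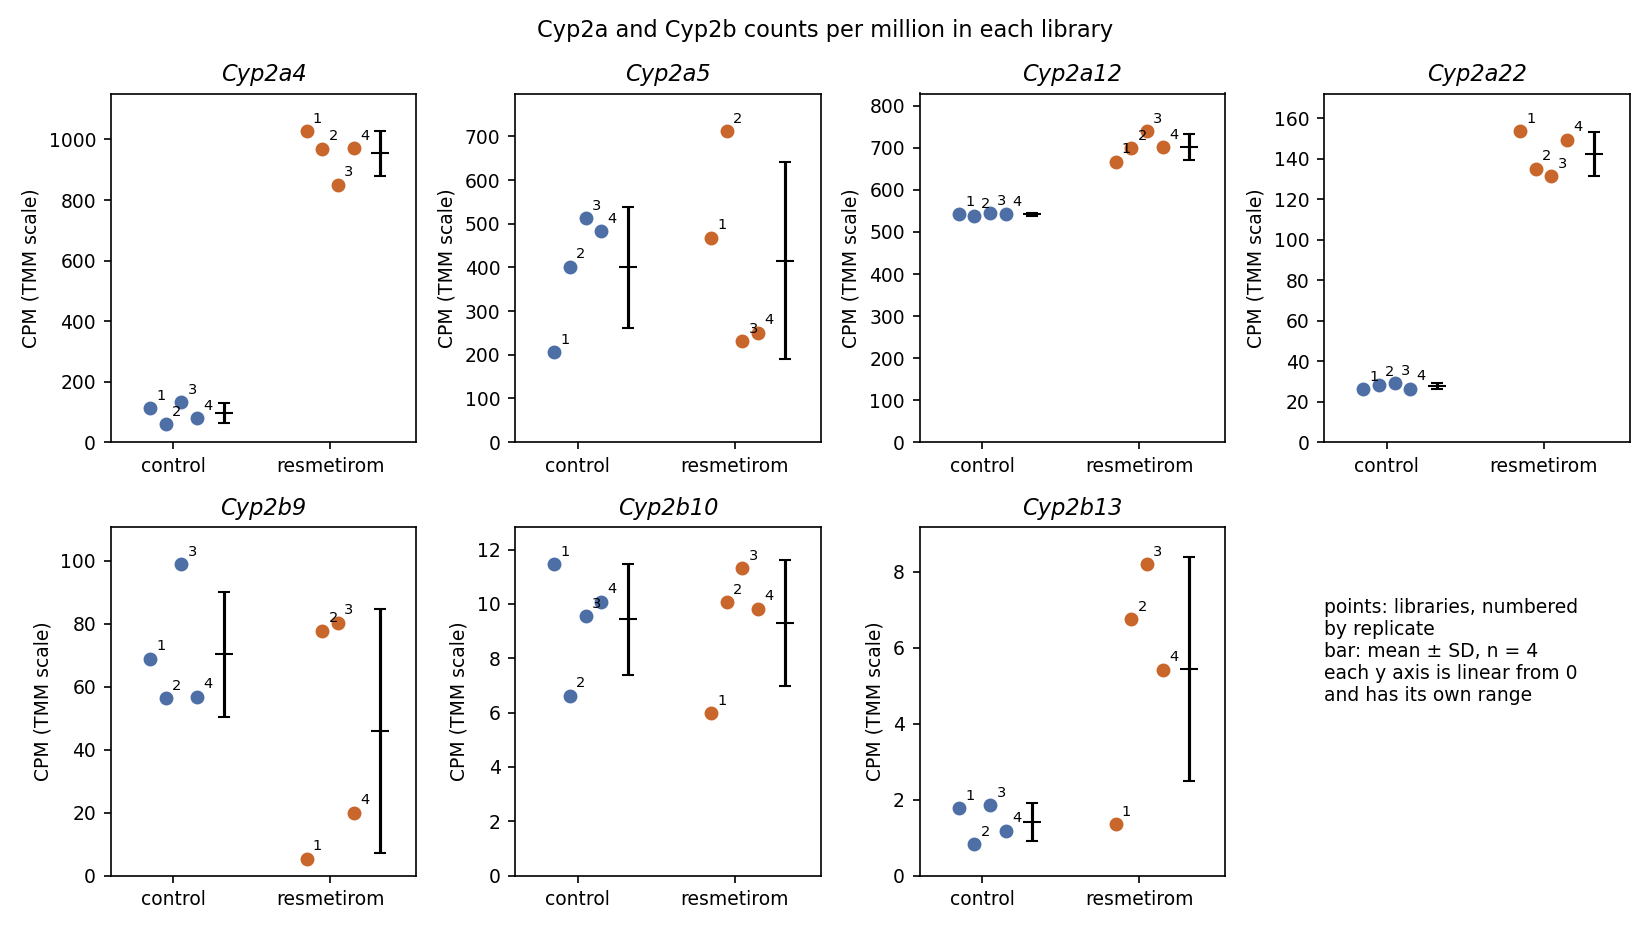
Level of each member in every library, in CPM on the TMM scale on a linear axis from 0, with points numbered by replicate and a bar for the mean ± SD (n = 4). Cyp2a4, Cyp2a22 and Cyp2a12 show separate groups, while in resmetirom replicate 1 Cyp2b9 is at 5.35 CPM and Cyp2b13 at 1.35 CPM.

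Cyp2b9, a female-predominant gene of mouse liver, was at 68.9, 56.4, 98.8 and 56.9 CPM in control replicates 1 to 4. In resmetirom replicates 1 to 4 it was at 5.35, 77.8, 80.3 and 19.99 CPM. Resmetirom replicates 1 and 4 lay below every control library, and replicates 2 and 3 lay within the control range. The highest resmetirom library was 14.996 times the lowest, against 1.75 times among the control libraries. The means were 70.2 ± 19.9 and 45.9 ± 38.8 CPM (log2 fold change -0.62, SE 0.79), and it was -0.24 without resmetirom replicate 1 and -1.03 without replicate 3. The low count in replicate 1 rests on 95 reads and that in replicate 4 on 295, against 1150 to 2175 in the control libraries. Resmetirom replicate 1 is also the resmetirom library with the low Mup share, and its part in the Cyp2b values was not tested beyond the values without it.

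Cyp2b13, its near copy, was at 1.77, 0.822, 1.86 and 1.19 CPM in control replicates 1 to 4, from 17 to 41 counts a library. It was at 1.35, 6.75, 8.19 and 5.42 CPM in resmetirom replicates 1 to 4. Replicates 2 to 4 lay above every control library, and replicate 1 lay within the control range. The log2 fold change was 1.93 (SE 0.49) and was not called, and without resmetirom replicate 1 it was 2.26 (SE 0.30) and was called higher. It was called higher in 6 of the 19 alternatives, which also include DESeq2, upper-quartile factors and library sizes only.

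Cyp2b13 was 0.0146 to 0.0257 times Cyp2b9 in TPM in the control libraries and 0.253, 0.0869, 0.102 and 0.271 times in resmetirom replicates 1 to 4. The ratio was higher in every resmetirom library than in every control library, also in replicate 1, where both copies were low. The summed counts of both copies had a log2 fold change of -0.48 (SE 0.75).

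Cyp2b10, the CAR target gene, was at 11.5, 6.63, 9.54 and 10.1 CPM in control replicates 1 to 4 and at 5.97, 10.1, 11.3 and 9.83 CPM in resmetirom replicates 1 to 4. The ranges nearly coincided, with control replicate 2 and resmetirom replicate 1 lowest. The log2 fold change was -0.02 (SE 0.22). It was between -0.16 and 0.14 when any 1 library was left out. With log2(TPM + 1) it was -0.48 and with log2(TPM + 0.1) -0.53, called lower in both, at 6.27 to 10.6 TPM in the control and 5.22 to 6.58 TPM in the resmetirom libraries.

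The Cyp2a sum was 886, 1027, 1220 and 1132 CPM in control replicates 1 to 4 and 2318, 2517, 1954 and 2072 CPM in resmetirom replicates 1 to 4. The groups did not overlap, and the log2 fold change was 1.06 (SE 0.12). The Cyp2b sum was 82.1, 63.9, 110 and 68.1 CPM in the control libraries and 12.7, 94.6, 99.8 and 35.2 CPM in resmetirom replicates 1 to 4, which overlapped, with a log2 fold change of -0.42 (SE 0.63). That of the Cyp2b sum was -0.08 without resmetirom replicate 1.

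**Figure D2:**
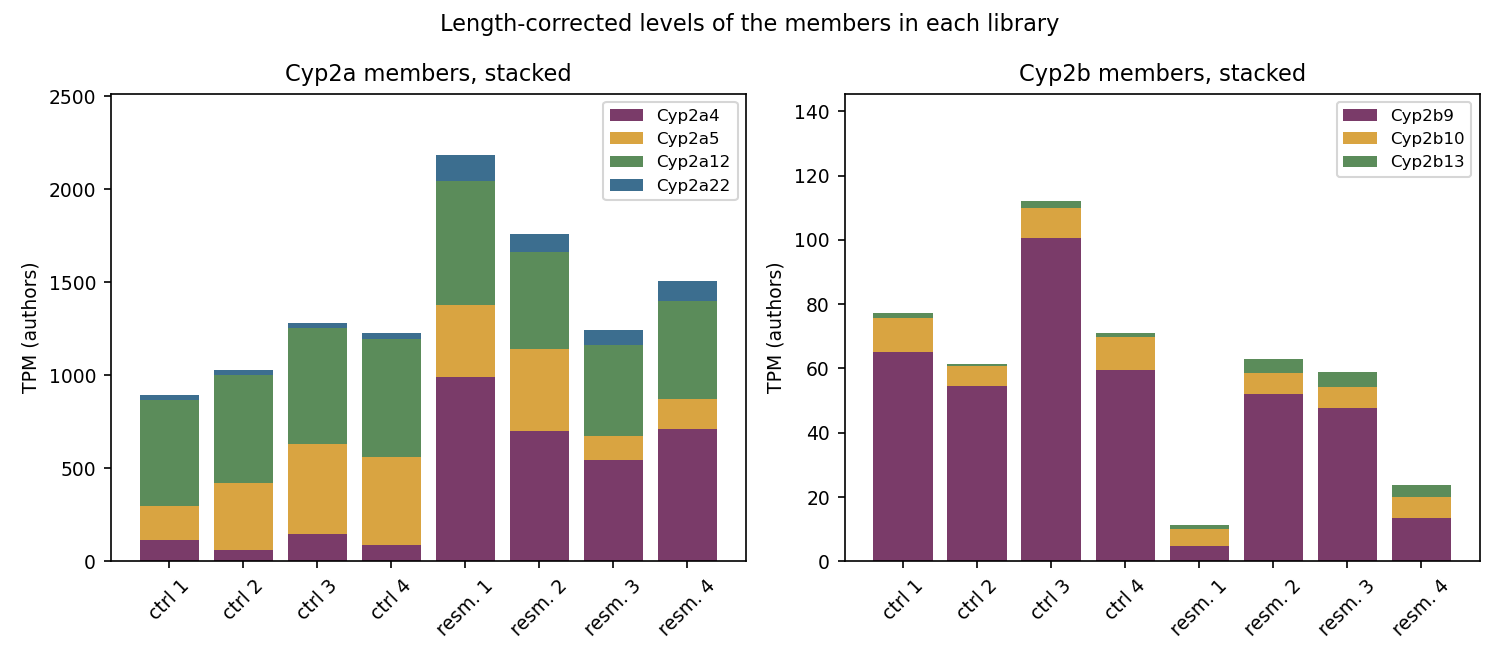
Stacked TPM of the Cyp2a members (left) and the Cyp2b members (right) in each library, both axes from 0. The Cyp2a4 segment makes up 5.93% to 12.8% of the Cyp2a bar in the control libraries and 39.7% to 47.2% in the resmetirom libraries, and the Cyp2b bar of resmetirom replicate 1 is the lowest, at 11.2 TPM.

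The make-up of the Cyp2a subfamily differed between the groups, while the shares of Cyp2b9 and Cyp2b10 differed mainly in resmetirom replicates 1 and 4. By TPM, Cyp2a12 held 55.1% ± 6.77 of the Cyp2a sum in the control libraries and Cyp2a5 33.0% ± 8.59, while Cyp2a4 held 9.35% ± 3.25 and Cyp2a22 2.62% ± 0.270 (SD, n = 4). In the resmetirom libraries Cyp2a4 held the largest share, 44.0% ± 3.17, before Cyp2a12 at 33.7% ± 4.56, Cyp2a5 at 16.0% ± 7.12 and Cyp2a22 at 6.37% ± 0.714 (SD, n = 4). Cyp2b9 held 83.7% to 89.8% of the Cyp2b sum in the control libraries and 42.6%, 82.4%, 80.6% and 57.1% in resmetirom replicates 1 to 4. In resmetirom replicate 1 Cyp2b10 held the larger share, 46.6%. Its share was 10.4% and 11.1% in resmetirom replicates 2 and 3, within the control range of 8.49% to 14.5%. Cyp2b13 held 1.29% to 2.16% in the control and 7.16% to 15.5% in the resmetirom libraries.

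The order of the members by TPM was the same in all 4 control libraries, falling from Cyp2a12 through Cyp2a5, Cyp2a4, Cyp2b9, Cyp2a22 and Cyp2b10 to Cyp2b13. Among the neighbours in that order only Cyp2a4 (61.1 to 145 TPM) and Cyp2b9 (54.4 to 101 TPM) overlapped. In all 4 resmetirom libraries the order began with Cyp2a4, Cyp2a12, Cyp2a5 and Cyp2a22, and Cyp2b13 was last. There Cyp2a4 (544 to 990 TPM) overlapped Cyp2a12 (489 to 664 TPM), Cyp2a5 (128 to 444 TPM) overlapped Cyp2a22 (81.3 to 143 TPM), and Cyp2b9 (4.78 to 51.9 TPM) overlapped Cyp2b10 (5.22 to 6.58 TPM).

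Within the groups the Cyp2b members varied together and the Cyp2a4 and Cyp2a5 copies did not. Over the deviations of log2 CPM from the group means in 8 libraries, Pearson's r was 0.917 between Cyp2b9 and Cyp2b13, 0.901 between Cyp2b10 and Cyp2b13 and 0.729 between Cyp2b9 and Cyp2b10. It was 0.0024 between Cyp2a4 and Cyp2a5 and -0.671 between Cyp2a12 and Cyp2a22. These values are a description of 8 libraries whose members share depth and scaling factors, and the deviations of resmetirom replicate 1, -2.33 for Cyp2b9, -1.47 for Cyp2b13 and -0.562 for Cyp2b10 on the log2 scale, were the largest negative ones of each Cyp2b gene. By the same measure the genes most like Cyp2a5 were Ocln (r = 0.991), Ctsl (0.990) and Nr1d2 (0.981), and those most like Cyp2a12 Gtpbp4 (0.995), Sbds (0.991) and Tmem11 (0.981). Those most like Cyp2b9 were Kmt2c (0.982), Slc38a2 (0.981) and Vars2 (0.969), and those most like Cyp2b10 Pcmt1 (0.995), Trip10 (0.971) and Kbtbd8 (0.969). These are the highest values of a search through all tested genes outside the family with a mean of at least 1 CPM. With 8 libraries such a search gives high values by itself, so nothing is read from their size. Cyp2a12 also deviated with Cyp2b9 (0.827) and Cyp2b13 (0.858), although its own deviations stayed between -0.0729 and 0.0776.

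**Figure D3:**
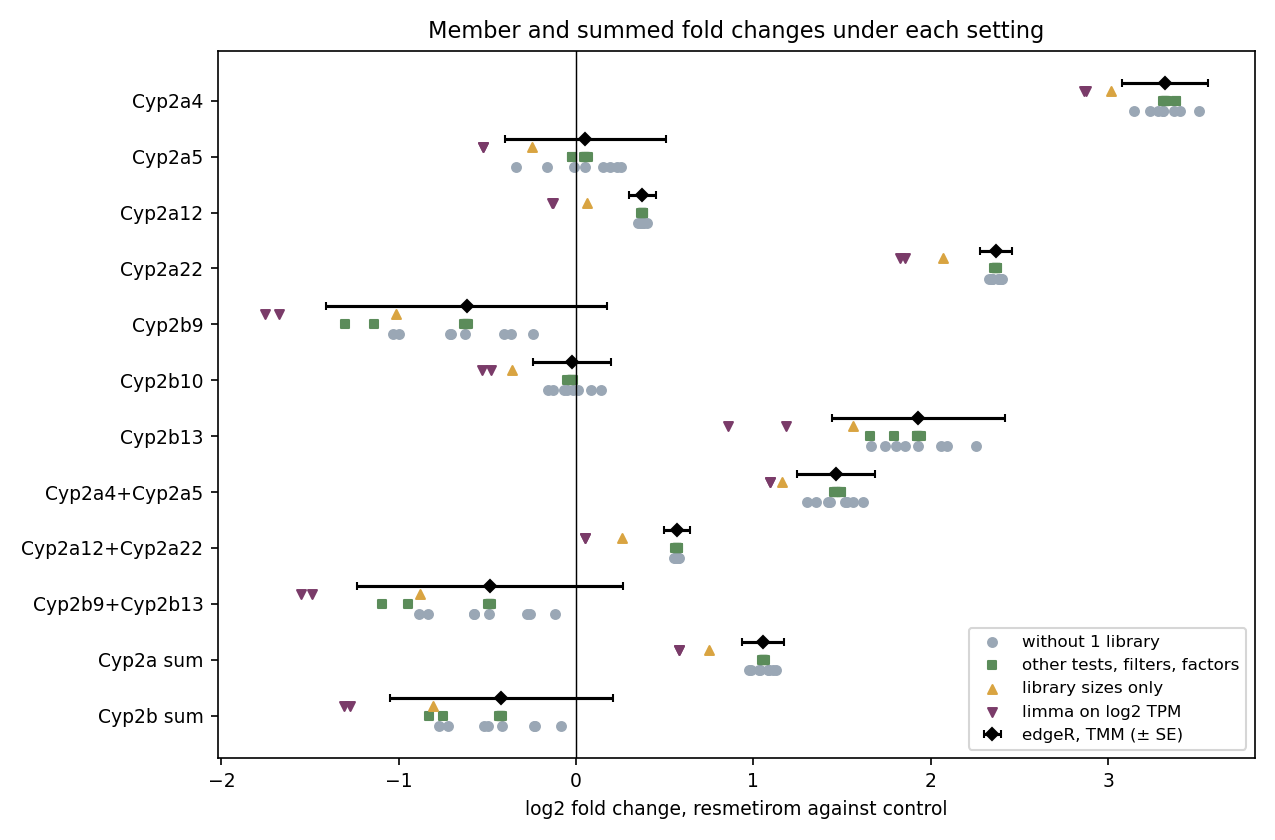
Log2 fold change of each member and sum, resmetirom against control, as fitted with edgeR and TMM factors (black, ± SE) and under each alternative setting. Cyp2a4 and Cyp2a22 stay above 1.8, Cyp2a12 moves from 0.37 to -0.13 on the TPM scales, and Cyp2b9 spans -1.75 to -0.24.

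Other genes in and beside the P450 cluster on chromosome 7 were not called in the edgeR fit with TMM factors, while on both TPM scales 1 was called lower. Of 7 neighbouring genes, Cyp2b19, Cyp2b23 and Cyp2t4 had no counts in any library, Cyp2g1 was not tested at 42 counts in all, and of the 3 tested none was called with edgeR or DESeq2, while 1 had an unadjusted p under 0.05. Cyp2f2, a P450 gene of periportal hepatocytes that lies beside Cyp2a12, was at 402 to 566 CPM in the control and 438 to 542 CPM in the resmetirom libraries (log2 fold change 0.07, SE 0.12, adjusted p = 0.831). Cyp2s1 was at 0.0466 to 0.939 and 0.732 to 3.44 CPM (log2 fold change 1.78, SE 0.71, adjusted p = 0.209).

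Among 16 transcription factors and cofactors known to act on Cyp2a or Cyp2b genes, 1 was called higher and 1 lower, with a median log2 fold change of -0.06 against -0.0043 for all tested genes. DESeq2 called 2 higher and 2 lower, and with edgeR 6 of the 16 had an unadjusted p under 0.05. Nr1i3, which encodes CAR, was at 80.8 ± 14.4 and 95.5 ± 11.4 CPM (log2 fold change 0.24, SE 0.13, adjusted p = 0.374). Nr1i2, which encodes PXR, was at 65.4 ± 8.45 and 51.5 ± 8.21 CPM (log2 fold change -0.34, SE 0.13, adjusted p = 0.184), and it was called lower when library sizes alone set the scale and on both TPM scales. Hnf4a was at 420 ± 133 and 556 ± 277 CPM (log2 fold change 0.41, SE 0.39, adjusted p = 0.684). Rxra, the gene of the RXR partner of CAR, was called higher, with a fold of 0.34 on the log2 scale (SE 0.08, adjusted p = 0.0384), but not when any 1 library was left out (adjusted p = 0.0520 to 0.112) and not on the TPM scales, where its sign turned (-0.14). The list had 0 higher and 7 lower when library sizes alone set the scale, and 0 and 8 on both TPM scales.

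Of 13 tested genes of growth hormone signalling and of sex-biased transcription, 3 rose and none fell, with a median of 0.02. Prlr, the prolactin receptor gene, rose from 41.9 ± 9.09 to 96.3 ± 11.1 CPM (log2 fold change 1.20, SE 0.15, adjusted p = 0.000793). On the log2 scale, used for all changes below, Tox rose by 1.11 (SE 0.22, adjusted p = 0.0135) and Trim24, a nuclear receptor cofactor gene, by 0.66 (SE 0.16, adjusted p = 0.0407). Tox missed the threshold without control replicate 4 (adjusted p = 0.0581), and Trim24 did so without any of 6 of the 8 libraries. Neither was called on the TPM scales. For the whole list library sizes alone gave 2 higher and 2 lower, and both TPM scales gave 1 and 3. Stat5b, which encodes the factor that carries the growth hormone signal, was at 34.1 ± 5.54 and 34.6 ± 3.64 CPM (log2 fold change 0.02, SE 0.13, adjusted p = 0.964). Bcl6, a repressor gene, had a change of 0.89 (SE 0.98, adjusted p = 0.726), and Cux2, a factor of female liver, was not tested at 112 counts in all.

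Other genes known as targets of CAR and PXR changed in both directions. Of 28 tested, 5 rose and 11 fell, with a median of -0.23. Cyp3a11, the main drug-metabolising P450 gene under PXR, fell from 9006 ± 2120 to 2862 ± 507 CPM (log2 fold change -1.65, SE 0.18, adjusted p = 0.000401). On the log2 scale Abcc3, an export pump gene, fell by 2.80 (SE 0.22, adjusted p = 0.000128) and the carboxylesterase gene Ces2a fell by 1.16 (SE 0.10, adjusted p = 6.19e-05). The glutathione transferase gene Gsta2 fell by 1.47 (SE 0.16, adjusted p = 0.000298) and Cyp2c29 fell by 1.26 (SE 0.18, adjusted p = 0.00235). The 5 that rose, named after their values were seen, were Ugt1a1 (0.74), Papss2 (0.61), Gstt1 (0.46), Cyp2c37 (0.85) and Slco1a4 (0.78, each as log2 fold change). With library sizes only the list had 0 higher and 14 lower, on both TPM scales 0 and 16, without control replicate 3 it had 2 and 9, and without control replicate 4 it had 1 and 9.

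Genes that supply P450 enzymes with electrons and heme were mostly not called, with 1 of 14 higher, none lower and a median of 0.05. Por, the P450 reductase gene, was at 471 ± 149 and 367 ± 91.4 CPM (log2 fold change -0.36, SE 0.26, adjusted p = 0.552). Alas1, the first enzyme of heme synthesis, had a change of -0.37 (SE 0.27, adjusted p = 0.577). On both TPM scales the list had 0 higher and 8 lower, with Por and Alas1 among the lower ones. Cyb5b, an outer mitochondrial membrane cytochrome b5 gene, rose by 0.66 (SE 0.10, adjusted p = 0.00229) and lost its call when library sizes alone set the scale (adjusted p = 0.0977). None of 11 tested NRF2 target genes was called with edgeR or DESeq2, with a median of -0.12 and 2 at an unadjusted p under 0.05, while 0 higher and 3 lower were called with library sizes only and 0 and 7 on both TPM scales. The NRF2 target with the smallest p was Gsta4, with a change of -0.30 (SE 0.11, adjusted p = 0.173).

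Of 27 listed genes outside the family that female mouse liver expresses more, 20 were tested. Of these 12 rose and 1 fell, against 2.6% and 1.99% of all tested genes, with a median of 3.95. A1bg, Cyp3a16, Cyp3a41a, Cyp3a44, Sult2a1 and Sult2a2 had control means under 0.07 CPM. They passed the low-count filter only through the resmetirom libraries, so the filter fixed their direction and they raise the median. Setting the 2 genes without any control count to the bound given by 3 counts over the control group left the median at 3.95. Both genes stayed above the median, so this could not test it. The median did depend on other settings. It was 3.64 with library sizes only and 3.46 over 27 genes without the low-count filter. From TPM it was 2.99 when the pseudocount was 0.1 and 1.69 when it was 1. Cyp39a1, an oxysterol hydroxylase gene, rose by 1.32 (SE 0.09), the transporter genes Slc22a27 and Slc22a29 by 3.95 (SE 0.24) and 4.18 (SE 0.30), and the receptor gene Ntrk2 by 3.95 (SE 0.34). The 1 that fell, named after its value was seen, was the lipase gene Lpl, by 1.81 on the log2 scale. Of 19 tested male-biased genes 9 fell and none rose, against 1.99% and 2.6% of all tested genes, with a median of -1.28. With DESeq2, limma-voom, the replicate block and without control replicate 1, 1 male-biased gene was called higher. Cyp7b1, named after its value was seen, went the other way without a call (0.73, SE 0.19, adjusted p = 0.0550). It was higher in every resmetirom library than in every control library. Cyp2d9 was at 805 ± 50.9 and 111 ± 22.7 CPM (log2 fold change -2.86, SE 0.14, adjusted p = 3.06e-07) and Mup20 fell by 3.96 (SE 0.25). The omega-hydroxylase genes Cyp4a12a and Cyp4a12b fell by 6.72 (SE 0.47) and fell by 6.45 (SE 0.49). Of the female-predominant members, Cyp2a4 was thus higher in all 4 resmetirom libraries, Cyp2b13 in 3 of 4 and Cyp2b9 in none of the 4 when each is set against the highest control library. That some female-biased genes were high while Cyp2b9 was not is a description, and the difference between them was not tested.

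**Figure D4:**
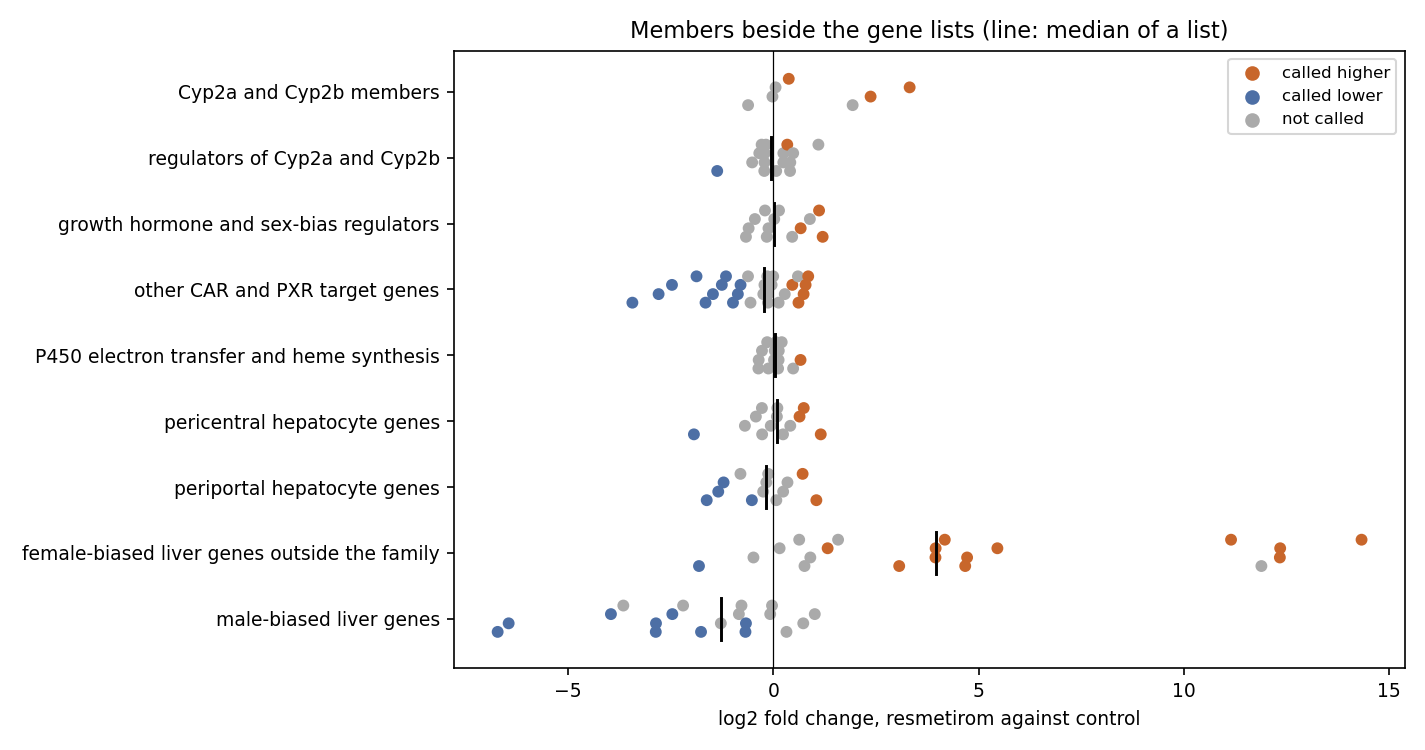
Log2 fold change, resmetirom against control, of the 7 members and of the tested genes of 8 lists, coloured by edgeR call, with a line at the median of each list. The female-biased list has its median at 3.95 and the male-biased list at -1.28, and the other lists have medians between -0.23 and 0.08.

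Genes of the liver zones did not move as blocks. Of 13 pericentral genes 3 rose and 1 fell (median 0.08), and of 13 periportal genes 2 rose and 4 fell (median -0.17). Cyp2e1, the pericentral P450 gene, was at 7155 ± 493 and 5914 ± 809 CPM (log2 fold change -0.27, SE 0.11, adjusted p = 0.224) and was called lower when library sizes alone set the scale and on both TPM scales, and Cyp1a2 fell by 1.94 (SE 0.19, adjusted p = 0.000246). Lect2 rose by 0.74 (SE 0.13), Slc16a10 by 0.64 (SE 0.12) and the Wnt receptor gene Lgr5 by 1.153 (SE 0.29, adjusted p = 0.0454), of which Lgr5 lost its call without any of 6 of the 8 libraries (adjusted p up to 0.145). Among the periportal genes Pigr fell by 1.63 (SE 0.13), Aldh1b1 fell by 1.34 (SE 0.26) and Hsd17b13 fell by 0.53 (SE 0.12), while Cdh1 rose by 1.05 (SE 0.18). Hsd17b13 lost its call without any of 4 libraries, and Aldh1b1 without resmetirom replicate 4 (adjusted p = 0.0538). With library sizes only the pericentral list had 0 higher and 4 lower and the periportal list 1 and 5, and on both TPM scales they had 0 and 6 and 0 and 8. Lect2, Slc16a10 and Lgr5 were not called in any of these settings, and Cdh1 not on the TPM scales. Thrb, which encodes the receptor the drug activates, had a change of -0.28 (SE 0.15, adjusted p = 0.380) and was called lower in the same 3 settings. Dio1, a thyroid hormone target gene, had a change of 1.31 (SE 0.30, adjusted p = 0.0550) and was called higher in 9 of the 19 alternatives, DESeq2 among them.

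Markers of other cell types and tissues were low beside those of hepatocytes. Of 9 tested hepatocyte markers 2 rose, Cps1 by 0.76 (SE 0.15) and Serpina1a by 0.50 (SE 0.11), which lost its call without any of 3 libraries. Neither was called with library sizes only or in TPM. In these settings no hepatocyte marker was called higher, and 1 (library sizes) or 2 (TPM) were called lower. With DESeq2 5 of the 9 were called higher and with limma-voom 4, and with edgeR 5 had an unadjusted p under 0.05. The median changes were 0.35 for hepatocyte, 0.55 for cholangiocyte, -0.12 for macrophage, -0.40 for endothelial, -0.21 for stellate and 1.14 for lymphocyte markers. Of the cholangiocyte (6 tested), macrophage (9) and endothelial (7) markers none was called with edgeR, against 1, 0 and 4 at an unadjusted p under 0.05 and 0, 0 and 1 called with DESeq2. When library sizes alone set the scale, 4 endothelial markers, 1 cholangiocyte marker and 0 macrophage markers were called lower. On both TPM scales 6 endothelial markers and 1 cholangiocyte marker were called lower, and of the macrophage markers 1 with a pseudocount of 1 and 0 with 0.1. No marker of these 3 lists was called higher in these settings. The genes with the smallest p were Sox9 at -1.38 (SE 0.53), Ccr2 at -0.66 (SE 0.44) and Tek at -0.40 (SE 0.11). The macrophage markers summed to 453 to 694 CPM in the control and 285 to 706 CPM in the resmetirom libraries, and the cholangiocyte markers to 33.4 to 62.2 and 45.9 to 78.7 CPM. The endothelial markers summed to 200 to 277 and 167 to 247 CPM. Of 8 stellate cell markers 1 fell, Col3a1, which fell by 1.06 (SE 0.25) and lost its call without any of 6 libraries, with sums of 358 to 572 and 369 to 640 CPM. On both TPM scales 3 stellate cell markers were called lower. Of 5 tested lymphocyte markers 1 rose, Jchain by 1.44 (SE 0.30), with sums of 3.36 to 6.86 and 6.73 to 15.2 CPM. With edgeR 3 of the 5 had an unadjusted p under 0.05, and DESeq2 called 2 higher. Only 1 lymphocyte marker passed a filter of at least 1 CPM in 4 libraries, so the median of this list rests on genes with few counts. Lung and nasal epithelium, which also express Cyp2a and Cyp2b genes, left almost no trace, with 5 of 7 markers, among them Scgb1a1 and Sftpc, at no counts and a sum of at most 0.395 CPM. Of 6 kidney tubule markers 3 had no counts and 2 were tested, neither called, with Lrp2 at 0.81 (SE 0.94), and the list summed to 95.7 to 143 and 89.0 to 150 CPM. Of 6 adipocyte markers Adipoq and 2 others had no counts, and Fabp4 fell by 0.996 (SE 0.17). The part of these cell types in the members' values was not tested beyond these levels.

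Beside the 7 members, 6 of 13 tested Cyp2c genes were called higher and 3 lower, against 2.6% and 1.99% of all tested genes. Of 6 tested Cyp2d genes none was called higher and 1 lower, of 7 Cyp3a genes 2 and 1, and of 6 Cyp4a genes 2 and 2. The median changes were 0.60 for Cyp2c, -0.13 for Cyp2d, 0.0059 for Cyp3a and 0.23 for Cyp4a, and the differences between families were not tested. These family counts come from the edgeR fit with TMM factors alone, and how they depend on the scaling was not examined.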

How the data were processed

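Poly(A)-selected liver RNA of 8 libraries (4 control, 4 resmetirom) was analysed from 1 deposited table. The authors deposited whole-number counts and TPM per gene and library, with group means, a log2 fold change and a p-value per gene, per the file headers. The authors' log2 fold change and p-value columns were not used for results. In alphabetical order and with no role, the submitters' processing notes list Bowtie2 2.2.8, DESeq2, edgeR, fastp 0.18.0, HISAT2 2.1.0, RSEM and StringTie 1.3.1, and the build mm10. The treatment of strand and of reads shared between copies was not given in the sources used here. Columns were matched to samples by name, with 0 left unmatched.

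Counts were fitted over all genes with edgeR 4.0.16 in R 4.3.3 (filterByExpr, 12207 genes kept; TMM factors; robust quasi-likelihood fits, glmQLFit and glmQLFTest; Benjamini-Hochberg adjustment, threshold 0.05). A positive log2 fold change means higher with resmetirom. The SE equals the absolute log2 fold change over the root of its F statistic. For sums, counts of the members were added and put in their place before the same fit. Alternatives were DESeq2 1.42.0, limma 3.58.1 (voom, and log2 TPM with pseudocounts of 1 and 0.1), other scalings and filters, a replicate block, and leaving out each library. Members and lists were chosen with earlier results of these data known. The text names all members, for each list the called genes of smallest p, at most 4, or where none was called the first gene by p, a panel of 15 genes (CAR, PXR and their partners, P450 supply genes, sex-bias factors, Thrb and Dio1), and the 3 genes most like 4 members. A gene that this rule names is not reported here. On simulated counts (12105 genes tested, 50 changed per fold) the procedure recovered 36% of 1.5-fold, 80% of 2-fold, 94% of 4-fold and 98% of 8-fold changes, with 7 false calls among 161. The simulated libraries held no shift in composition like that of the Mup transcripts and no uneven resmetirom group, so these figures do not cover the effect of scaling. Libraries of a group differed beyond counting error (chi-square per degree of freedom at least 13.8), so all were kept as separate samples. Coordinates, transcripts and overlaps came from GENCODE M21 (GRCm38, the assembly of mm10), promoters from RefSeq on GRCm38.p6, where all 7 members were found, and alignments were made with Biopython 1.88.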

Additional observations from a re-analysis of the deposited data

Results flagged for a closer look

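In groups of 4 libraries, the highest or lowest library was looked at where its gap to the next one exceeded Dixon's critical share of the group's range, which chance alone gives in about 1 of 20 groups. No Cyp2a or Cyp2b member or sum met this, and 9 of the 124 groups examined did, all of them genes outside the family. In the control group, replicate 2 stood apart for Nr1i3 (102 CPM), Trim24 (38.4 CPM) and Bcl6 (24.3 CPM), and replicate 1 for Hnf4a (619 CPM). In the resmetirom group, replicate 1 stood apart for Cyp2c29 (380 CPM), replicate 2 for Aldh1b1 (14.9 CPM), replicate 3 for Lgr5 (6.53 CPM) and Cps1 (4414 CPM), and replicate 4 for Prlr (79.7 CPM).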

How the results depend on the processing

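Cyp2a4 and Cyp2a22 kept their direction and their call in all 19 alternatives, and Cyp2b9 and Cyp2b13 kept their direction in all 19. When any 1 library was left out, the Cyp2a sum ranged from 0.98 to 1.13 and the Cyp2b sum from -0.77 to -0.08. Over the 11 other alternatives the Cyp2b sum ranged from -1.31 to -0.42, and none called it. Scaled by library size alone the Cyp2a sum was 0.75, and in log2 TPM, with a pseudocount of 1 or of 0.1, it was 0.58, called higher each time. In log2 TPM, with either pseudocount, Cyp2a12 turned to -0.13, Rxra turned to -0.14 and 1 member, Cyp2b10, was called lower. The calls over all genes, 317 higher and 243 lower, became 532 and 411 with DESeq2, 151 and 1961 when only library sizes set the scale, 123 and 4648 on the log2(TPM + 1) scale and 122 and 4608 on the log2(TPM + 0.1) scale. Without 1 library they ranged from 182 to 313 higher and from 149 to 238 lower, the lowest without control replicate 4. The cause of these shifts was not tested. With a replicate block 240 genes were called higher and 166 lower, of members 2 in place of 3, and the numbers gave no sign of pairing: same-numbered libraries correlated in their deviations at -0.336, 0.212, -0.207 and -0.0857, and 2 of 8 libraries correlated best with their own number. Of 928 values for 49 named genes outside the family, 820 stayed on the same side of the threshold. These include values that changed sign where neither fit called the gene, among them values of Cyp2f2, Stat5b, Nr1i3 and Hnf4a. A further 73 kept their direction but fell short of the threshold and 33 newly passed it. The remaining 2 turned in a gene that a fit had called. Low counts limit Cyp2b13, which had 17 to 123 counts a library.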
